A study of Mus musculus with 6 samples.

Results

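Aldh1a1, Adh1 and Cyp26b1 encode enzymes that make and degrade retinoic acid. They were taken by symbol from the deposited results table of a study that set Leydig cells of the fetus (FLCs) beside those of the adult testis (ALCs), and make up 3 of its 10580 listed genes. All 3 had a row. The cells came from testes of XY mice that were heterozygous for an Nr5a1-GFP transgene, which both stages therefore carried. Embryos were taken at E18.5 from CD-1 females mated with transgenic males, and adult males at P100, with 3 libraries per stage and 6 in all. Live single cells with strong green fluorescence were sorted. Nr5a1 is expressed by steroidogenic cells but also by Sertoli cells, so the gate rested on the strength of the fluorescence. FLCs from different sorts were combined before sequencing, so a fetal library may hold cells of many embryos. The values used here are 1 mean per gene over all 6 libraries, so each level below describes FLCs and ALCs together, with no SD and no test. How the levels of the 3 genes divided between FLCs and ALCs was not analysed here.

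Retinol, or vitamin A, is turned into retinoic acid in a pair of oxidation steps. Alcohol dehydrogenases and retinol dehydrogenases first form retinal, and retinal dehydrogenases of the ALDH1A family then form the acid, which binds nuclear receptors and changes transcription. Enzymes of the CYP26 family hydroxylate retinoic acid and so remove it. In the fetal mouse testis, CYP26B1 is known for breaking down retinoic acid, which keeps germ cells from entering meiosis before birth, whereas in the adult testis retinoic acid is needed for spermatogonia to differentiate.

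Aldh1a1, which encodes a retinal dehydrogenase, lies on the plus strand of chromosome 19 from 20492715 to 20643465 of GRCm38 and spans 151 kb. GENCODE vM21 annotates 6 transcripts of it, 3 of them protein coding, with starts in regions 109 kb apart. The transcript Aldh1a1-206 starts at the distal region and has 16 exons, and Aldh1a1-201 starts at the proximal one and has 13. The deposited value is per gene and does not separate the starts. The sequences before both starts are therefore shown from RefSeq on GRCm38.p6, up to the base before the first start that RefSeq or GENCODE annotates in the window, with no capitals because none of the motifs searched lies in them.

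Aldh1a1 distal start, chr19:20492333-20492582, plus strand: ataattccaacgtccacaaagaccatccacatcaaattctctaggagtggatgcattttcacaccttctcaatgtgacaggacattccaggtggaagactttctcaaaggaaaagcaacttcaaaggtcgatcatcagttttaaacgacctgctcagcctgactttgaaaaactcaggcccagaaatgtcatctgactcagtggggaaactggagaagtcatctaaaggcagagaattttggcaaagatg

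Aldh1a1 proximal start, chr19:20601718-20601960, plus strand: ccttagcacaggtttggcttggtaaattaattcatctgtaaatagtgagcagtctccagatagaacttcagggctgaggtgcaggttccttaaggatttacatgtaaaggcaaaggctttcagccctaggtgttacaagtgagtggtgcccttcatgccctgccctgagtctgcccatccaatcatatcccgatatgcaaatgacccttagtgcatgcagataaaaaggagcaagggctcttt

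Adh1, an alcohol dehydrogenase that oxidises retinol among other alcohols, lies on the plus strand of chromosome 3 from 138260991 to 138290698. It spans 29.7 kb and has 4 annotated transcripts, of which only Adh1-201, with 9 exons, is protein coding. Cyp26b1, the hydroxylase of retinoic acid, lies on the minus strand of chromosome 6 from 84571414 to 84593908, spans 22.5 kb and has 5 protein coding transcripts. Its start region holds a TATAAA that begins 41 bases before the start of Cyp26b1-202, which is at -139 from the RefSeq start. The region is shown with that match in capitals.

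Cyp26b1 start, chr6:84593909-84594060, minus strand: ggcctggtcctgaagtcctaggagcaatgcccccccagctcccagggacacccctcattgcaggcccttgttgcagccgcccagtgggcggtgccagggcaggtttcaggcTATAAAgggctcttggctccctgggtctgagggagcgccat

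On both strands, windows of 250 bases before and 50 after each RefSeq start were searched for TATAAA, for CACGTG, a form of the E-box, for AAGGTCA, the letters bound by NR5A1, and for AGGTCA, the repeat unit to which retinoic acid receptors bind. AGGTCA lies within AAGGTCA, so each match to the longer motif is also one to the shorter. Of 32851 windows, 13.6% held TATAAA, 7.15% CACGTG, 4.72% AAGGTCA and 16.3% AGGTCA. All 4 motifs were chosen after the sequences of the 3 genes had been seen, and TATAAA and CACGTG because they had been noticed there, so their matches carry no weight. Besides the TATAAA of Cyp26b1, the only other match was a CACGTG in the window of Adh1, which begins 4 bases after the RefSeq start. Neither AAGGTCA nor AGGTCA was found in the 2 windows of Aldh1a1 or in the single windows of Adh1 and Cyp26b1, which says only that these letters are not there. The GC content was 43.3% and 47.0% in the distal and proximal windows of Aldh1a1, 45.3% in that of Adh1 and 62.3% in that of Cyp26b1, beside a median of 52.7%.

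**Figure D1:**
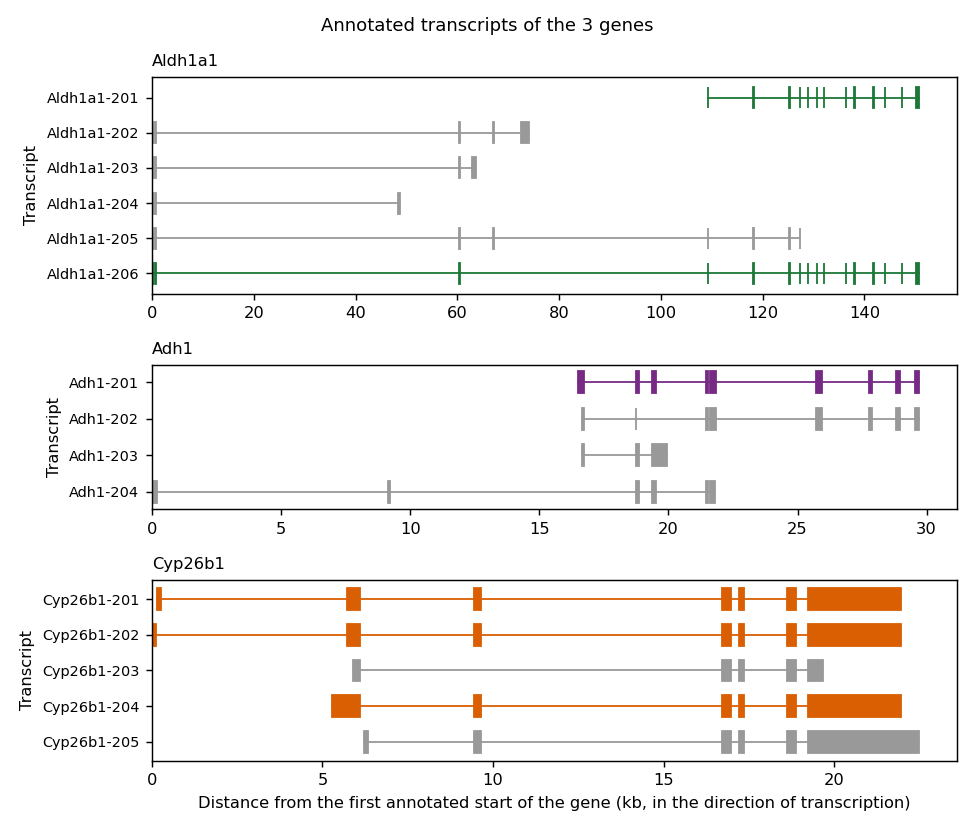
Exons (boxes) and introns (lines) of the annotated transcripts of Aldh1a1, Adh1 and Cyp26b1 in GENCODE vM21, by distance in kb from the first annotated start of each gene, with transcripts that carry a consensus coding sequence in color and the others in gray. Aldh1a1-206 begins at the distal start and Aldh1a1-201 begins 109 kb further on, and both end in the same region.

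With both stages pooled, all 3 genes had means among the highest of the listed genes, with 0.832% of them at or above the lowest of the 3. Aldh1a1 had a mean of 332373 normalized counts over the 6 libraries, which was rank 2 of the 10580 listed genes and 1.5% of the sum of all listed means. The only gene above it was the eGFP transgene, with 350200. Adh1 had a mean of 58712, rank 25 and 0.264% of the sum. Cyp26b1 had a mean of 23010.2, rank 88 and 0.104% of the sum. The median of all listed genes was 679, with quartiles of 119 and 1928, so the 3 genes lay far above the upper quartile. The table lists only genes with an adjusted p under 0.05 in the authors' own comparison of the stages, and these ranks therefore hold among such genes and not among all expressed genes.

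Longer transcripts give more reads, so levels were compared between genes per kb of coding length, the union of the annotated coding bases without the stop codon. Aldh1a1, with 1503 coding bases, had 221140 normalized counts per kb, and Adh1, with 1125, had 52188. Cyp26b1, with 1536 coding bases, had 14981 per kb. Per coding kb, the ratio of Aldh1a1 to Adh1 was 4.24 and that of Aldh1a1 to Cyp26b1 was 14.8. Adh1 was 3.48 times Cyp26b1. With the union of all annotated exons as the length, the same ratios were 2.56, 15.7 and 6.12. Neither length is that of a single transcript, and the exon union of Aldh1a1, 4937 bases, includes exons of noncoding transcripts. The coding transcripts Aldh1a1-201, Adh1-201 and Cyp26b1-201 have 2053, 1492 and 4157 bases. Ratios with these lengths were not computed and may lie outside the pairs given. The order of the 3 genes was the same per coding kb and per exonic kb. It is an order of means over both stages and may not hold within FLCs or within ALCs, and without values per library it cannot be said whether neighbours in this order differed beyond the spread between libraries.

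The Leydig cell markers give a scale for these levels. Per coding kb, Insl3, a peptide hormone of Leydig cells, had 706170 normalized counts, and the steroidogenic enzymes Cyp17a1, Hsd3b1 and Cyp11a1 had 172342, 147521 and 136958. Star, which carries cholesterol into mitochondria, had 102702. Insl3 was 3.19 times Aldh1a1, and Aldh1a1 was 1.28 times Cyp17a1, 1.61 times Cyp11a1 and 2.15 times Star. Per exonic kb Insl3 was 6.16 times Aldh1a1, and Aldh1a1 was 1.4 times Cyp11a1 and 3.16 times Star. The exonic length of Aldh1a1 includes exons of noncoding transcripts, which lowers its level per exonic kb. The ratio of Aldh1a1 to Cyp17a1 per exonic kb was 0.657, so the order of this pair turned with the choice of length. The ratio of Adh1 to Star turned likewise, from 0.508 per coding kb to 1.24 per exonic kb. Star was 6.86 times Cyp26b1 per coding kb and 4.95 times per exonic kb. All of these ratios are of means over both stages, and neither they nor their order may hold within FLCs or within ALCs.

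The label of the cells was checked with markers of other testicular cells, some of which also use retinoids. All 5 Leydig cell markers were listed, with means from 87502 to 283675 normalized counts. Of 17 markers of Sertoli cells, germ cells, progenitors of the interstitium, endothelium, immune cells and peritubular myoid cells, 8 were listed, and their means ranged from 11.6 for Cxcl2 to 982 for Csf1r. The Sertoli cell markers Amh and Dhh had 137 and 89. No marker of peritubular myoid cells was listed. Listing requires an adjusted p under 0.05 between the stages, so from the listing alone a marker that was not listed may have any level. The check made here therefore covers the listed markers only. In its own purity check the paper reports low expression of these markers of other cells in its FLC and ALC samples. Each of the 8 lay below Cyp26b1, the lowest of the 3 enzymes. Whether cells of these types contributed to the levels of the enzymes was not tested, and in bulk samples fewer cells of a type and less RNA per cell cannot be told apart.

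**Figure D2:**
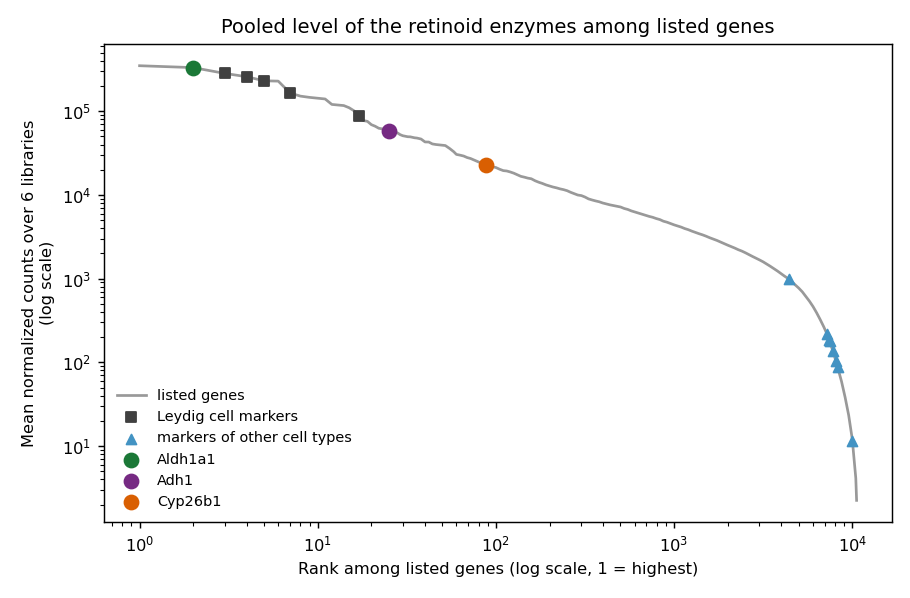
Mean normalized counts over 6 libraries (log scale) against rank among the 10580 listed genes (log scale), with the listed genes as a gray line, Leydig cell markers as squares and markers of other testicular cells as triangles. Aldh1a1 at 332373 sits above all 5 Leydig cell markers, Adh1 at 58712 and Cyp26b1 at 23010.2 sit below the lowest of them, Star at 87502, and the markers of other cells lie at 982 or less. These means are not divided by length, and per coding kb Insl3 lay above Aldh1a1.

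Among the listed genes of the ALDH1A family, Aldh1a1 had the highest level. Aldh1a2, the main source of retinoic acid in the embryo, had a mean of 3873 normalized counts, Aldh1a7 3448 and Aldh1a3 751. Per coding kb, Aldh1a1 was 88.7 times Aldh1a2, 96.4 times Aldh1a7 and 483 times Aldh1a3. Per exonic kb these ratios were 39.4, 40.3 and 414, with an Aldh1a1 length that includes exons of noncoding transcripts. The coding transcript Aldh1a1-201 has 2053 bases, close to the 2066 exonic bases of Aldh1a7. Aldh8a1 was not listed and is not analysed here. The coding sequence of Aldh1a1 was identical to that of Aldh1a7 at 91.6% of aligned bases, beside 70.0% for Aldh1a2 and 68.6% for Aldh1a3.

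Aldh1a7 is a close copy of Aldh1a1 on the same chromosome, and reads from stretches that both share could have been counted for either gene. The longest identical coding stretch, 100 bases, is longer than a 50 base read, and it is shown in capitals with 30 bases to each side. It covers coding bases 727 to 886 of both genes with the flanks, counted from the A of the start codon, and it crosses at least one intron in each.

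Aldh1a1, chr19:20624805-20630701, plus strand: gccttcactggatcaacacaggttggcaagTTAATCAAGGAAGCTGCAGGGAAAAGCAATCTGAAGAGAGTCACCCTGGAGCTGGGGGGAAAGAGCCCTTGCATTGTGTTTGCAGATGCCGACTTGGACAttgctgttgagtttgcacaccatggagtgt

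Aldh1a7, chr19:20708299-20714701, minus strand: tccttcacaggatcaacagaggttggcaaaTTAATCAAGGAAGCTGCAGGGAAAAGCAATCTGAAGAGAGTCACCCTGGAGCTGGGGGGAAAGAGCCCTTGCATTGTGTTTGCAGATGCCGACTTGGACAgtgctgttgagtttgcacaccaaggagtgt

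Of the 2004 windows of 50 bases in Aldh1a1-201, 151 occurred unchanged in Aldh1a7, which is 7.53%, and none in any other gene. The exonic bases of Aldh1a1 outside this transcript were not searched. The mean of Aldh1a7 was 1.04% of that of Aldh1a1, below the share of windows that both genes hold, so the level of Aldh1a7 is uncertain. Read pairs can settle many such windows, and the rule of the authors' counting for them is not given in the sources used here.

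Adh1 was the higher of the 2 alcohol dehydrogenases listed. Adh5, a formaldehyde-metabolising enzyme that also acts on retinol, had a mean of 12868 normalized counts, and Adh1 was 5.24 times Adh5 per coding kb and 11.1 times per exonic kb. Adh4, Adh6a, Adh6b and Adh7 were not listed. The coding identity of Adh1 with its relatives ran from 63.6% for Adh6a to 69.1% for Adh7, with 67.0% for Adh5. Of the 1443 windows of 50 bases in Adh1-201, 47 also occurred elsewhere, 43 of them in Gm16559, an antisense gene that shares 136 exonic bases with Adh1, and 4 in the pseudogene Adh6-ps1. Neither of these genes was listed. Exonic bases of Adh1 outside Adh1-201 were not searched.

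Cyp26b1 was the only one of the 3 CYP26 genes that was listed, and Cyp26a1 and Cyp26c1 are not analysed here. Its coding sequence was identical to that of Cyp26c1 at 66.4% of aligned bases and to that of Cyp26a1 at 62.0%. None of the 4108 windows of 50 bases in Cyp26b1-201 occurred in another gene, and no annotated gene overlaps its locus. The exonic bases of Cyp26b1 outside this transcript were not searched.

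The other genes of retinoid uptake, storage, oxidation and response were taken from a list of 61 genes by role. Of these, 35 were listed (57.4%), and 19 of the 35 (54.3%) had a mean above the median of all listed genes. To be listed, a gene needed an adjusted p under 0.05 in the authors' comparison of the stages. The share listed among all genes that the authors tested was not analysed here. Nothing is therefore read from the share listed of the 61 genes, of a role within them or of the cell type markers. Their median was 751 normalized counts with the 3 enzymes and 665 without them. The 3 enzymes together held 75.8% of the sum of the 35 means, and Aldh1a1 alone 60.8%. Of the other 32 genes, only Scarb1 had a higher mean than Cyp26b1.

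Scarb1, a receptor that takes up lipoprotein cholesterol and carotenoids, had a mean of 60985 normalized counts. Stra6, the receptor for retinol bound to its serum carrier, had 12.7, and Rbp4, that carrier, 125. Bco1 and Bco2, which cleave carotenoids, had 17 and 53.3. Among the carriers inside the cell, Fabp5, which can bind retinoic acid, had 319.6 and Rbp2, which binds retinol, 2.94. Crabp1 and Crabp2, the cellular binding proteins of retinoic acid, were not listed.

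For storage, Dgat1, which can form retinyl esters, had a mean of 582 normalized counts, and Ces1d, a carboxylesterase that can release retinol from its esters, had 11984. Retsat, which saturates a double bond of retinol, had 14826. Lrat, the main enzyme that esterifies retinol, was not listed.

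Of 11 genes grouped here as retinol dehydrogenases, 7 were listed, and Rdh11 was the highest of them with a mean of 2701 normalized counts. Whether each of them mainly forms retinal or reduces it was not analysed. Rdh10, the main retinol dehydrogenase of the embryo, had 347, and Dhrs9, the lowest, 3.95. Dhrs3 and Dhrs4, which reduce retinal back to retinol, had 4325 and 951. Per coding kb, Rdh11 had 2799 and Dhrs3 4621, both below the 52188 of Adh1.

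Of the 6 nuclear receptors of retinoids, 5 were listed. Rxra had a mean of 4333 normalized counts, Rxrb 1449 and Rara 1007, while Rarg had 243 and Rxrg 15.8. Rarb was not listed. Of 8 genes known to respond to retinoic acid, 3 were listed, namely Nrip1 with 3648, Rarres1 with 2641 and Cdx1 with 106. A gene that was not listed was not shown to be silent.

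**Figure D3:**
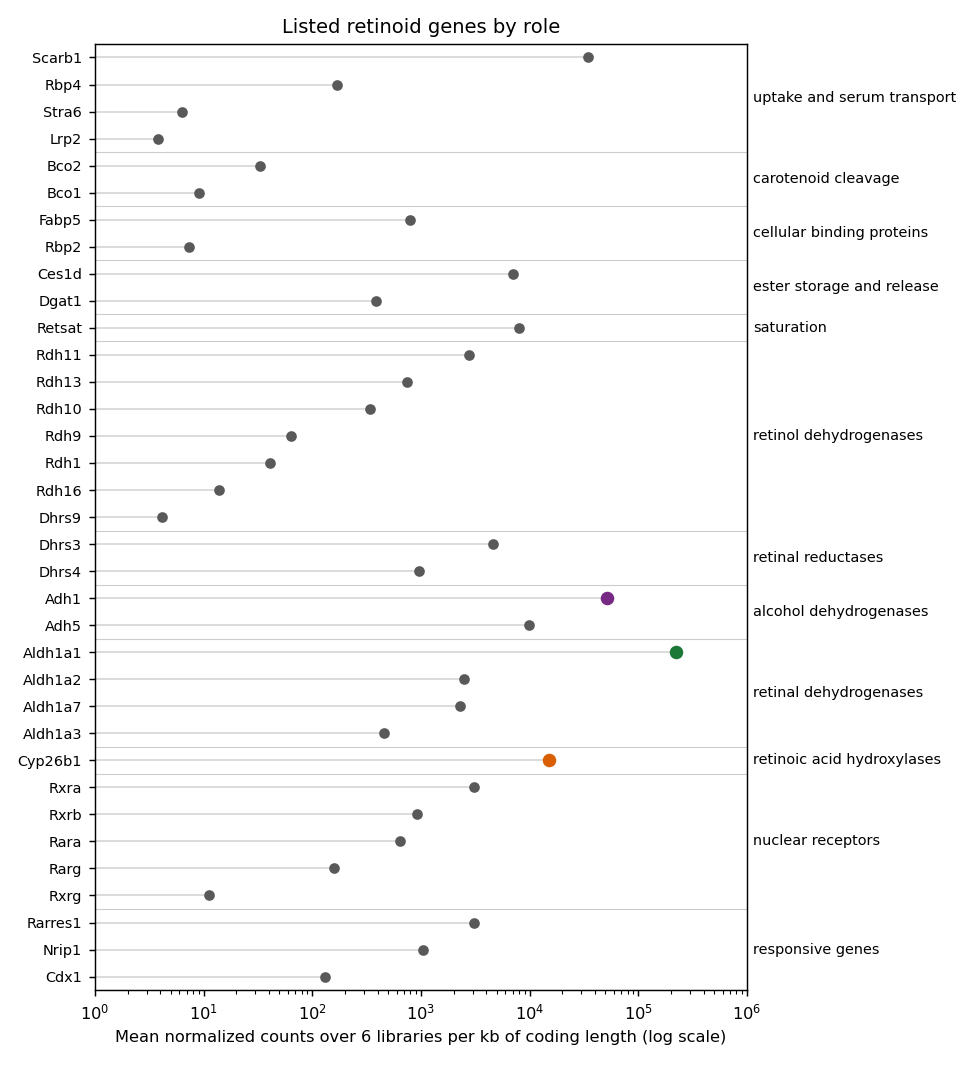
Mean normalized counts over 6 libraries per kb of coding length (log scale) for the 35 listed retinoid genes, grouped by role, with 1 point per gene and the 3 enzymes in color. Aldh1a1 at 221140 per kb is the highest point, Adh1 at 52188 is next, and Cyp26b1 at 14981 follows Scarb1 at 34769.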

How the data were processed

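Bulk RNA of FACS-sorted FLCs at E18.5 and ALCs at P100 was measured, with 3 libraries for each. Demultiplexing by the authors used CASAVA 1.8.2 (also in the submitters' processing notes), mapping used GemTools, and an in-house pipeline gave counts for the genes of a Gencode annotation on GRCm38. Genes with few reads were dropped before the authors ran DESeq2. The signal used here is the authors' deposited mean over all 6 libraries of read counts divided by size factors. The table also holds the authors' fold change, its standard error, the test statistic and p-values, which are the authors' comparison and were not used, beyond checking that each row has an adjusted p under 0.05. Depth per library is unknown. The listed means sum to 22228751 normalized counts.

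Levels were ranked, divided by the sum of listed means, and divided by coding or exonic length from GENCODE vM21, to which 10205 genes were matched by symbol and 299 by older symbol, while 76 had no match. Coding lengths, held by 10439 genes, came from this annotation in place of the planned protein table. Coding sequences were aligned with Biopython 1.88, and windows of 50 bases were compared with all annotated transcripts, both strands, and tested on simulated data. Start regions and their letters are those of RefSeq (GRCm38.p6), in which all motifs searched were chosen after the sequences had been seen. The genes named are the 3 enzymes, the retinoid list and the cell type markers, all chosen with earlier results of these data known, and some genes of the lists are not reported here and were left out of the counts. Python 3.11.15 and pandas 2.3.3 were used.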

Additional observations from a re-analysis of the deposited data

How the results depend on the processing

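Of 19 alternatives for 10 results, 15 gave values within 1.5 times those reported. Some alternatives could hardly move a value. Leaving out genes with a mean under 10 cannot change the rank of a higher gene. Leaving out eGFP, 1.575% of the sum, can only raise each share slightly. The count is therefore not a measure of how stable the results are. Among protein-coding genes alone, which leaves out the transgene, Aldh1a1 took rank 1. Per coding length, Cyp26b1 took rank 162. With exonic in place of coding length, the ratio of Aldh1a1 to Adh1 was 2.56 and that of Adh1 to Cyp26b1 was 6.12, where the annotated exons outside the coding sequence set the difference. No paired analysis was possible because the table holds no values per library, and for the same reason no library could be left out, no spread between libraries can be given and no test was made. The number of reads behind each mean is unknown, so no counting interval is given.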
